A study of Neotoma lepida with 16 samples.

Results

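Every probe that a rat expression array names for a Cyp2b gene was followed in the livers of desert woodrats (Neotoma lepida) fed creosote or juniper. The members were found by gene name alone: all probes whose name, after an ending that marks a predicted gene was removed, starts with Cyp2b. The array holds 9 such probes of 4 genes among its 41012 distinct probes: 4 probes of Cyp2b2, 2 of Cyp2b15, 2 of Cyp2b13 and 1 of Cyp2b3. All 9 were among the 30186 probes bright enough to be tested.

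The animals were wild caught, came from a Great Basin or a Mojave population, lived in captivity on rabbit chow for 3 months, and then ate chow with rising amounts of 1 of the plants for 5 days. Each of the 4 groups (Great Basin on creosote, Great Basin on juniper, Mojave on creosote, Mojave on juniper) held 4 animals with 1 array each. The Mojave animals on creosote were all males (4), while the sexes were even, 2 and 2, elsewhere. Ages, plant doses and the origin of single animals within a population are not given in the sources used here. No group ate chow alone, so a lower value on creosote and a higher value on juniper are the same measurement. On each array the animal's RNA carried the red dye (Cy5) and an equal pool of all 16 RNAs carried the green dye (Cy3), and values below are log2 ratios of animal over pool, unless a signal is named.

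Cyp2b enzymes are cytochrome P450s of the liver that oxidise drugs and plant compounds, and they are the classical targets of phenobarbital in rats and mice. The drug acts through the constitutive androstane receptor (CAR, gene Nr1i3), which is held in the cytoplasm by chaperones such as Hsp90, enters the nucleus on activation and binds upstream of Cyp2b genes with the retinoid X receptor. Each P450 needs a haem group, whose synthesis is paced by Alas1, and takes electrons from P450 reductase (Por) and cytochrome b5 (Cyb5). Juniper foliage is rich in terpenes and creosote resin in phenolics.

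The arrays differed in brightness: 46.4% to 76.2% of probe spots were well above background in Cy5, and the 4 arrays of 1 slide averaged 49.2% against 66.0% to 71.7% on the 3 other slides. Each slide held 1 animal of every group, so the dim slide is shared evenly. Each group always sat at the same position of a slide, so group and position cannot be told apart. The arrays carry rat probes, probe sequences were not used here, and which woodrat Cyp2b transcript a probe binds is not known. Each probe is therefore described on its own, and no probe's signal is read as a gene's level. Signal over background is used only to rank probes by brightness, and probes are compared by their diet differences and correlations. Of 15 hepatocyte markers, 11 were well above background on all 16 arrays.

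Most Cyp2b probes were lower on creosote than on juniper. In the Great Basin animals 7 of 9 probes passed the test, all lower on creosote, with at least 1 probe of each of the 4 genes. In the Mojave animals 4 of 9 passed, all lower on creosote, from Cyp2b2, Cyp2b15 and Cyp2b13. Over all tested probes 1.89% were called lower and 2.02% higher in the Great Basin, and 6.23% lower and 3.8% higher in the Mojave. The median difference over the 9 probes was -0.96 in the Great Basin and -0.45 in the Mojave, where the median over all probes was 0 and -0.01. These calls come from limma across all probes with Benjamini-Hochberg adjustment at 0.05, with sex as a term. The fitted differences are thus adjusted for sex. Since the Mojave creosote animals were all males, sex is partly confounded with diet in the Mojave and with population on creosote. Differences that involve this group rest on a sex effect estimated from the other groups and can depart from the printed animal values. The strength differed between probes of the same gene, as the plot of each animal's values shows.

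**Figure D1:**
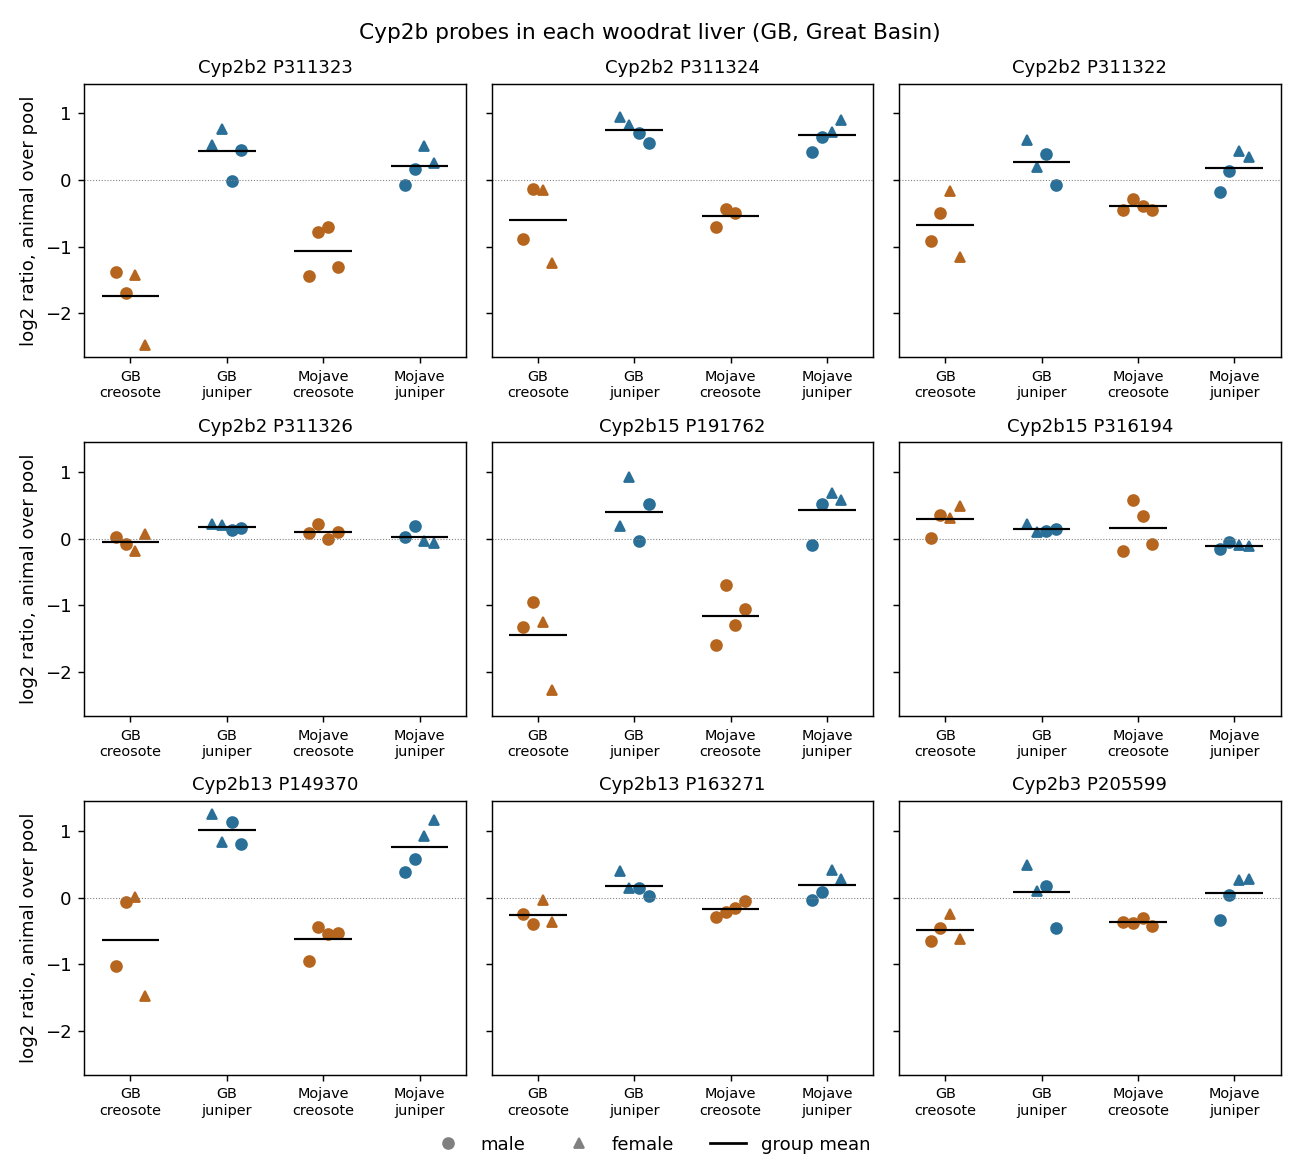
Log2 ratio of animal over pool (vertical axis) for the 9 Cyp2b probes in the 4 groups, with 1 point per animal (circles male, triangles female), creosote in brown, juniper in blue and the group mean as a line; probe names drop their common start A_44_. On 7 panels both creosote means lie below both juniper means, and Cyp2b2 P311326 and Cyp2b15 P316194 stay within -0.19 to 0.59.

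Cyp2b2 encodes a phenobarbital-inducible P450 of rat liver. Its probe A_44_P311323 had the largest diet difference of the 9 in the Great Basin. The values on creosote were -1.38, -1.69, -1.42 and -2.47 in the Great Basin animals. The values on juniper were 0.53, 0.77, -0.01 and 0.45 in that population. Every creosote animal thus lay more than 1 log2 unit below every juniper animal. The difference was -2.17 ± 0.24 (SE, n = 4 and 4), a 4.51-fold lower ratio on creosote (limma, adjusted p = 0.000131). In the Mojave the creosote animals stood at -1.44, -0.78, -0.71 and -1.31. The Mojave juniper animals stood at -0.07, 0.16, 0.51 and 0.26. These groups did not overlap either, and the difference was -1.22 ± 0.26 (limma, adjusted p = 0.00692), 2.32-fold.

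Probe A_44_P311324 of Cyp2b2 was the brighter one, with a Cy5 signal at a median of 2940 times its local background. Great Basin animals had -0.88, -0.14, -0.15 and -1.25 on creosote. On juniper they had 0.95, 0.82, 0.70 and 0.56. Animals 2 and 3 on creosote lay closer to the pool than animals 1 and 4, yet all 4 were below all 4 on juniper. The difference was -1.36 ± 0.21 (limma, adjusted p = 0.00171). Mojave animals had -0.71, -0.43 and -0.49 on creosote. The fourth Mojave creosote spot was marked as an outlier by the scanner software and left out. On juniper the Mojave values were 0.42, 0.64, 0.72 and 0.90, again with no overlap, and the difference was -1.15 ± 0.23 (n = 3 and 4; limma, adjusted p = 0.00631).

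The third Cyp2b2 probe, A_44_P311322, was dimmer, at a median of 8.66 times background. In the Great Basin it read -0.91, -0.50, -0.16 and -1.15 on creosote. On juniper it read 0.60, 0.20, 0.39 and -0.08. The groups were separate, and the difference of -0.96 ± 0.18 passed the test (limma, adjusted p = 0.00644). In the Mojave it read -0.45, -0.28, -0.39 and -0.45 on creosote against -0.18, 0.13, 0.44 and 0.34 on juniper. The Mojave groups did not overlap, but the difference of -0.45 ± 0.19 did not pass (limma, adjusted p = 0.171).

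The fourth Cyp2b2 probe, A_44_P311326, stayed near the pool in every group. Its Great Basin values were 0.03, -0.08, -0.18 and 0.07 on creosote and 0.23, 0.21, 0.14 and 0.16 on juniper. Although these 2 groups did not overlap, the difference of -0.23 ± 0.07 did not pass (limma, adjusted p = 0.103; 95% interval -0.38 to -0.07). Its Mojave values ran from 0.00 to 0.22 on creosote and from -0.06 to 0.19 on juniper, with a difference of 0.05 ± 0.08 and a 95% interval from -0.12 to 0.22. The probe was well above background on all 16 arrays, at a median of 16.8 times.

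Cyp2b15 was represented by a pair of probes that gave different pictures and that the array annotates to different transcripts. For A_44_P191762, the Great Basin values on creosote were -1.33, -0.95, -1.25 and -2.27. On juniper they were 0.19, 0.93, -0.03 and 0.53. The highest creosote animal (-0.95) lay below the lowest juniper animal (-0.03), and the difference was -1.86 ± 0.28, or 3.63-fold (limma, adjusted p = 0.00131). The Mojave values were -1.60, -0.70, -1.29 and -1.06 on creosote. They were -0.09, 0.52, 0.69 and 0.59 on juniper. The difference was -1.57 ± 0.30, or 2.96-fold, the largest of the 9 probes in that population (limma, adjusted p = 0.00423).

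The other Cyp2b15 probe, A_44_P316194, was not lower on creosote. It read 0.01, 0.36, 0.32 and 0.50 on creosote and 0.22, 0.11, 0.12 and 0.15 on juniper in the Great Basin. The difference was 0.15 ± 0.14 (limma, adjusted p = 0.66; 95% interval -0.15 to 0.45). In the Mojave it read -0.19, 0.59, 0.35 and -0.08 on creosote and -0.16, -0.04, -0.09 and -0.11 on juniper. The difference was 0.31 ± 0.15 (limma, adjusted p = 0.241; 95% interval -0.01 to 0.63). The creosote animals were spread over a wider range than the juniper animals in both populations, with SDs of 0.21 against 0.05 and of 0.37 against 0.05, a spread that was not tested. The signal of this probe was 15.8 to 43.8 times background, clear of the background on every array.

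Cyp2b13 is named after a mouse gene of the family that is more abundant in female liver. Its bright probe A_44_P149370, at a median of 5660 times background, read -1.02, -0.07, 0.01 and -1.48 in Great Basin animals on creosote. On juniper these animals read 1.26, 0.83, 1.13 and 0.81. Creosote animals 2 and 3 were at the level of the pool and animals 1 and 4 were more than 1 log2 unit below it; animals 1 and 4 were also the lowest with Cyp2b2 probe A_44_P311324. The groups were separate, with a difference of -1.65 ± 0.27, or 3.13-fold (limma, adjusted p = 0.00273). In the Mojave the values were -0.95, -0.44, -0.55 and -0.53 on creosote. On juniper they were 0.38, 0.58, 0.92 and 1.17. The Mojave creosote animals were less spread (SD 0.23) than those of the Great Basin (SD 0.73), and the difference was -1.30 ± 0.30, or 2.46-fold (limma, adjusted p = 0.0116).

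The other Cyp2b13 probe, A_44_P163271, was the dimmest of the 9. Its signal was 1.41 to 3.63 times background, and it was well above background on 14 arrays (3 of 4 in each creosote group, 4 of 4 in each juniper group). Great Basin values were -0.24, -0.39, -0.03 and -0.37 on creosote and 0.40, 0.15, 0.15 and 0.02 on juniper. The difference of -0.44 ± 0.09 passed the test (limma, adjusted p = 0.0124), and the call was lost without Great Basin juniper animal 1 (-0.39, adjusted p = 0.0529). Mojave values were -0.29, -0.22, -0.15 and -0.05 on creosote and -0.03, 0.08, 0.42 and 0.28 on juniper. The Mojave groups were separate, and the difference of -0.26 ± 0.10 did not pass (limma, adjusted p = 0.116).

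Cyp2b3, which in rat liver is expressed without an inducer, had 1 probe (A_44_P205599, median 6.05 times background). Great Basin animals read -0.65, -0.45, -0.24 and -0.62 on creosote and 0.49, 0.10, 0.17 and -0.45 on juniper. The groups overlapped through juniper animal 4, and the difference was -0.57 ± 0.14 (limma, adjusted p = 0.0294). The call did not survive leaving out Great Basin creosote animal 1 or 4 (adjusted p = 0.0737 and 0.0735) or juniper animal 1 or 3 (0.109 and 0.101). Mojave animals read -0.36, -0.38, -0.30 and -0.42 on creosote and -0.33, 0.04, 0.27 and 0.28 on juniper, and the difference of -0.27 ± 0.15 did not pass (limma, adjusted p = 0.316). The plain means of these Mojave groups were -0.36 and 0.07, farther apart than the difference fitted with the sex term.

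**Figure D2:**
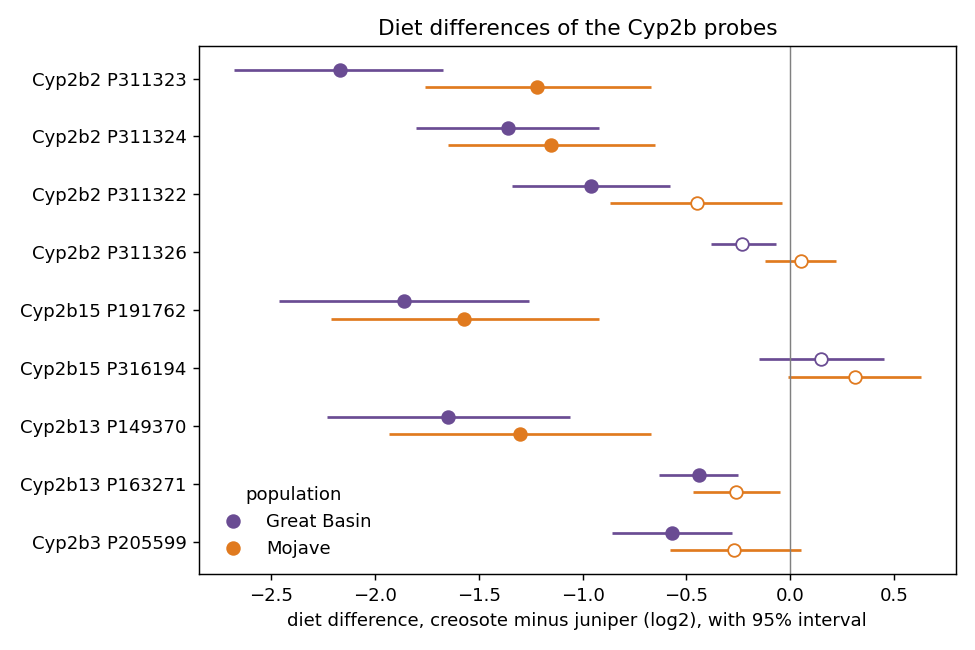
Diet difference, creosote minus juniper on the log2 scale (horizontal axis), for each Cyp2b probe in the Great Basin (purple) and Mojave (orange) populations, with 95% intervals; filled points passed limma's test at an adjusted p of 0.05. Filled points lie between -2.17 and -0.44. Cyp2b2 P311326 (-0.23 in the Great Basin and 0.05 in the Mojave) and Cyp2b15 P316194 (0.15 and 0.31) were not called.

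Counted by overlap, the creosote group lay wholly below the juniper group for 7 of 9 probes in the Great Basin, where this held for 5.31% of all probes. It did so for 6 of 9 in the Mojave, against 9.93% of all probes. On single slides, which pair 1 animal of each group, the creosote animal was lower on 4 of 4 slides for 7 probes in the Great Basin, and on 3 of 4 for Cyp2b3. On single slides the Great Basin difference of A_44_P311323 ran from -2.99 to -1.37 and that of A_44_P149370 from -2.73 to -0.80. In the Mojave A_44_P191762 ran from -1.98 to -1.22 and A_44_P311324 from -1.21 to -1.07 over the 3 slides that had it. With slide as a block the counts stayed at 7 and 4. Without the dim slide, 3 animals a group remained and 2 probes passed in the Great Basin, A_44_P311323 at -2.44 and A_44_P191762 at -2.04. The bright Cyp2b13 probe was then at -1.48 (limma, adjusted p = 0.0801) and A_44_P311324 at -1.29 (limma, adjusted p = 0.0571). In the Mojave 3 probes passed without that slide, and the bright Cyp2b13 probe did not (-1.32, limma adjusted p = 0.0613). Bulk liver RNA cannot tell fewer expressing cells from less RNA per cell.

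Probes under the same gene name differed in their diet difference. The Cyp2b15 probes are annotated to different transcripts, whereas the probes of Cyp2b2, and those of Cyp2b13, share a transcript record. For each of the 8 pairs of probes of 1 gene, the difference in log2 ratio between the probes was compared between diets within population, by an exact two-sided permutation test over 4900 arrangements. The diet differences were unequal in 7 of 8 pairs after Benjamini-Hochberg adjustment over the pairs. The Cyp2b15 probes were farthest apart, A_44_P191762 minus A_44_P316194 (mean difference -1.93, exact permutation p = 0.000408, the smallest these arrangements allow, adjusted p = 0.000653). Within Cyp2b2, A_44_P311323 and A_44_P311324 differed from A_44_P311326 by -1.65 and -1.21 (both adjusted p = 0.000653, exact permutation). The pair of the strongest Cyp2b2 probes, A_44_P311323 and A_44_P311324, did not pass, at -0.81 in the Great Basin and 0.02 in the Mojave (mean -0.40, exact permutation adjusted p = 0.062). With the outlier spot kept this pair passed as well (-0.46, exact permutation adjusted p = 0.031).

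The size of the difference depended on the background treatment for dim probes. Before ratios were taken, 50 intensity units were added to each corrected signal, which pulls ratios of dim spots towards 0. With 10 units the dim Cyp2b13 probe A_44_P163271 moved from -0.44 to -0.76 in the Great Basin, and with the scanner software's processed signals to -1.60. In the Mojave it moved from -0.26 to -0.90 with processed signals. The Cyp2b13 probes then no longer differed in the pair test (mean difference -0.08, exact permutation adjusted p = 0.716), against -1.11 before. For the dim Cyp2b2 probe A_44_P311322 and the bright A_44_P311324, the 0.53 between them fell to 0.26 (exact permutation adjusted p = 0.0886). The Cyp2b15 pair stood at -1.93 under both treatments, and A_44_P311326 stayed apart from the other Cyp2b2 probes. Of the 8 pairs, 5 were unequal with processed signals.

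**Figure D3:**
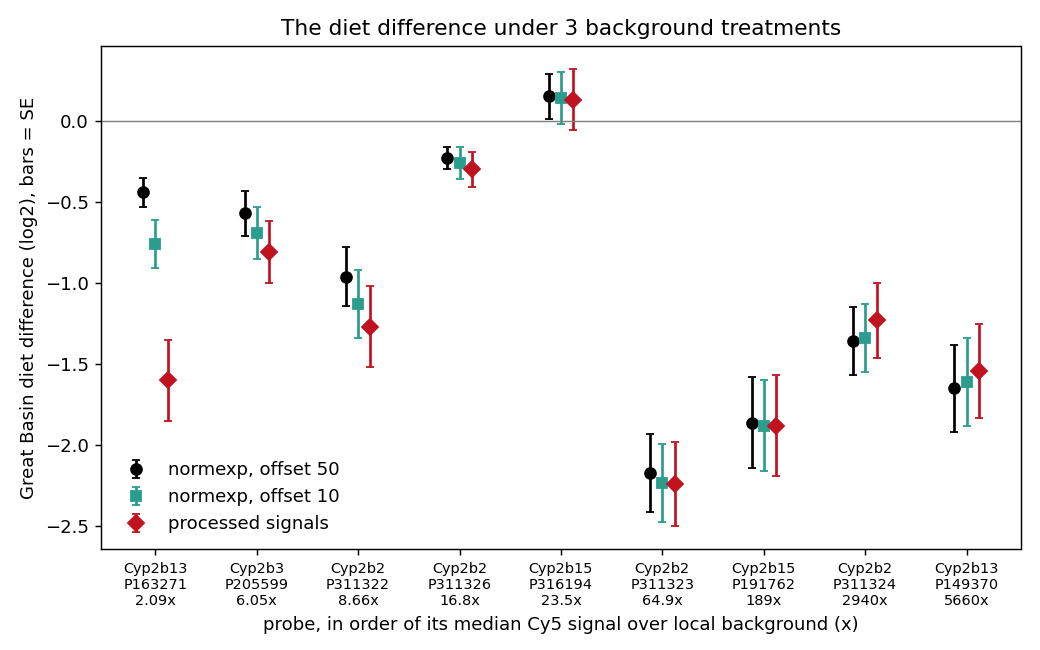
Great Basin diet difference (vertical axis, log2, bars are SE) of each Cyp2b probe under 3 background treatments, with probes ordered by their median Cy5 signal over local background. The dimmest probe, Cyp2b13 P163271, moves from -0.44 to -1.60, while probes at 16.8 times background and above move little.

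No Cyp2b probe was called between the populations. On creosote 0 of 9 Cyp2b probes differed between Mojave and Great Basin animals (limma, adjusted p under 0.05; 0.0928% of all probes were called), and 1 had an unadjusted p under 0.05. That probe was Cyp2b2 A_44_P311323, with a Mojave minus Great Basin difference of 0.74 ± 0.26 (limma, adjusted p = 0.205; 95% interval 0.19 to 1.28) that was positive on 4 of 4 slides. On juniper 0 of 9 passed (0% of all probes) and 0 had an unadjusted p under 0.05. The Cyp2b15 probe A_44_P316194 was the one with no overlap on juniper, at -0.25 ± 0.14, Mojave minus Great Basin (limma, adjusted p = 0.688), where the Mojave group lay wholly below for 3.17% of all probes. For the bright probes the intervals still allowed sizable differences, as from -0.53 to 0.73 on creosote for Cyp2b13 A_44_P149370.

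The diet difference was then compared between the populations through the interaction term. It was called for 0 of 9 probes (limma; 0% of all probes), and 2 had an unadjusted p under 0.05. For A_44_P311323 the Mojave diet difference minus that of the Great Basin was 0.96 ± 0.35 (95% interval 0.22 to 1.70, limma adjusted p = 0.237). For A_44_P311326 it was 0.28 ± 0.11 (limma, adjusted p = 0.269). Estimates were positive for all 9 probes with loess normalization, but for 5 of 9 they turned negative when arrays were centred on the median, as for A_44_P311324 (0.21 to -0.41). The calls in 7 probes in 1 population and 4 in the other are therefore no test of a difference between populations.

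Sex was a term of the model and was called for 0 of 9 probes (limma; 0.00663% of all probes). An unadjusted p under 0.05 was seen for 2 probes, with male minus female differences of -0.33 ± 0.11 for Cyp2b3 and -0.21 ± 0.07 for Cyp2b13 A_44_P163271 (limma, both adjusted p = 0.994). The bright Cyp2b13 probe had -0.15 ± 0.22. With males alone, 2 animals remained in 3 of the groups, and A_44_P311323 was the 1 probe that passed in the Great Basin (-1.75, limma adjusted p = 0.0237).

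The 7 probes called in the Great Basin were correlated over the animals. Pearson's r over the 16 arrays ran from 0.73 to 0.99 in their 21 pairs, a description that includes the diet difference itself and the shared reference pool. The highest value, 0.99, joined probes of different genes, Cyp2b2 A_44_P311324 and Cyp2b13 A_44_P149370. The Cyp2b2 probes A_44_P311323 and A_44_P311326 reached 0.40. The remaining probes, A_44_P311326 and A_44_P316194, had r from -0.42 to 0.40 with the 7, and 0.04 with each other.

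**Figure D4:**
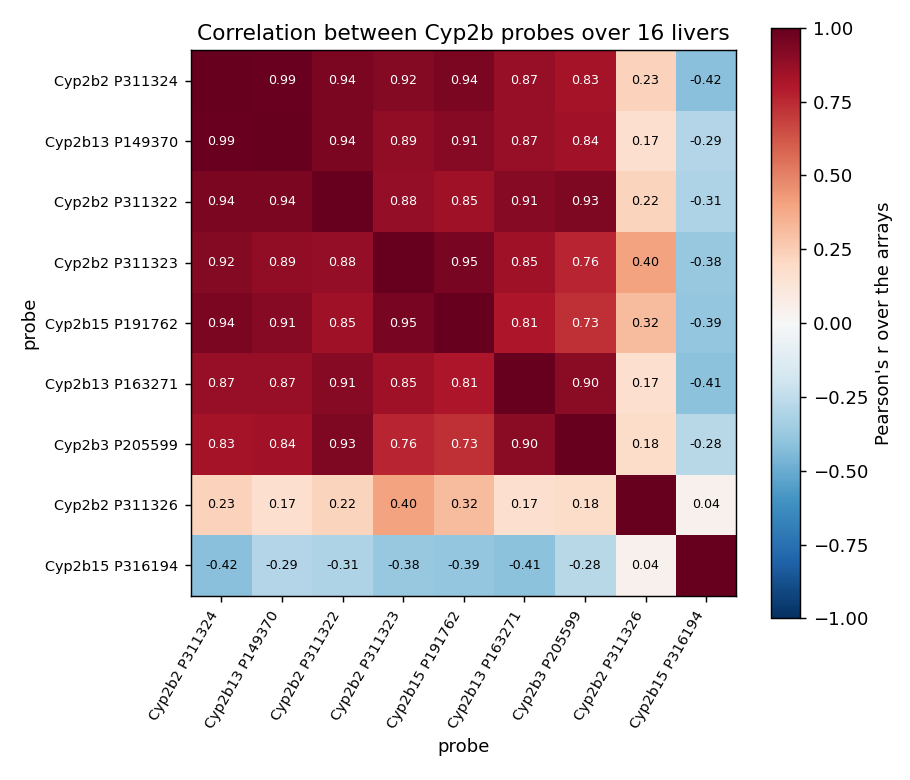
Pearson's r between the log2 ratios of each pair of Cyp2b probes (both axes) over 16 arrays, 15 where A_44_P311324 is involved; red is positive and blue negative. The 7 probes called in the Great Basin diet test of these same values have r from 0.73 to 0.99, and P311326 and P316194, not called, stand outside. This split follows in part from that choice.

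Among 13096 probes of other genes with a symbol, those most like the brightest probe of each Cyp2b gene were listed by r. These r also include the diet difference, so probes that follow diet can rank high. For Cyp2b2 A_44_P311324 these were Hspa8 (r = 0.974), a constitutive Hsp70 chaperone, Gsto1 (0.958), a glutathione transferase, and Copz2 (0.954), a coat protein of transport vesicles, over 15 arrays. For Cyp2b13 A_44_P149370 they were Copz2 (0.954), Gsto1 (0.94) and the Hsp40 cochaperone Dnajb1 (0.939). For Cyp2b15 A_44_P191762 all 3 were proteasome subunits, Psmd2 (0.95), Psma5 (0.94) and Psmb5 (0.94). For Cyp2b3 they were Spin (0.953), Olr486 (0.889) and Hspa1a (0.855), an inducible Hsp70. Hspa8, Gsto1, Copz2 and the 3 proteasome subunits were themselves called lower on creosote in both populations. Dnajb1 and the genes listed for Cyp2b3 were called in neither.

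Nr1i3, which encodes CAR, was higher on creosote on its brighter probe, whereas most Cyp2b probes were lower. Great Basin animals read 0.18, 0.55, 0.18 and 0.60 on creosote and -0.09, -0.30, -0.36 and -0.44 on juniper. The difference was 0.67 ± 0.11 (limma, adjusted p = 0.00186). Mojave animals read 0.30, 0.49, 0.38 and 0.35 on creosote and -0.34, -0.36, -0.44 and -0.56 on juniper. That difference was 0.82 ± 0.11 (limma, adjusted p = 0.000589), and neither population's groups overlapped. Both calls were kept in all 16 runs that left out 1 animal. A second Nr1i3 probe, well above background on 9 of 16 arrays, showed no such difference (-0.01 ± 0.10 and 0.06 ± 0.11). Nr1i2, the gene of the related pregnane X receptor, was at 0.30 ± 0.09 and 0.11 ± 0.10, which did not pass (limma, adjusted p = 0.0807 and 0.568).

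Of 16 genes listed as CAR or pregnane X receptor partners and regulators, 15 were tested. In the Great Basin 1 was lower and 2 higher on creosote, and in the Mojave 1 lower and 3 higher, with a median of 0.07 in both. Among all tested probes 1.89% were lower and 2.02% higher in the Great Basin, and 6.23% and 3.8% in the Mojave. The lower gene of the list was Hspca, an Hsp90 chaperone, at -1.08 ± 0.24 and -1.10 ± 0.26 (limma, adjusted p = 0.0201 and 0.0141). Of its 4 probes 2 passed, and the differences ranged from -1.45 to 0.06 in the Mojave. The coactivator Ncoa1 was at 0.33 and 0.35, with the Mojave value at -0.10 under median centring, and the glucocorticoid receptor Nr3c1 was higher in the Mojave (0.49), a value of 0.04 under median centring and 0.26 in Cy5 alone, neither called. With 1 animal left out, the call was lost in 3 of 16 runs for Hspca in the Great Basin, in 12 and 5 for Ncoa1 and in 4 for Nr3c1. Without the dim slide the calls for Ncoa1 in both populations, for Nr3c1 and for Hspca in the Mojave (-0.82, adjusted p = 0.0763 by limma) were lost. Rxra, the dimer partner, was not called.

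The electron donors of P450s were lower on creosote. The Cy5 signal of the Cyb5 probe was saturated on 4 of 4 juniper arrays in each population and on 0 of 8 creosote arrays, so its juniper level has only a bound. Cyb5 read -0.32, 0.30, -0.16 and -0.40 on creosote in the Great Basin and -0.02, -0.36, -0.39 and 0.17 in the Mojave. From the Cy5 signals, loess-normalized and then scaled between arrays, it was at least 1.43-fold lower on creosote in the Great Basin and at least 1.4-fold lower in the Mojave, with each saturated spot taken at its value, a bound open to dye bias. The fit to the ratios as measured gave adjusted p = 4.83e-05 and 0.000191 (limma), and the probe could not be tested with saturated spots left out. Por was lower by -1.0 ± 0.22 in the Great Basin and -1.19 ± 0.24 in the Mojave (limma, adjusted p = 0.0175 and 0.005), and the creosote animals lay below the juniper animals in both. The Great Basin call for Por was lost without creosote animal 1 (-0.82, adjusted p = 0.0659) or juniper animal 2 or 4 (adjusted p = 0.0607 and 0.0611). It was also lost without the dim slide (-0.85, adjusted p = 0.163), with median centring (-0.89, 0.0613), with processed signals (-0.95, 0.0563) and with males alone (-1.19, 0.0781).

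Alas1, which paces haem synthesis, was lower by -1.55 ± 0.35 in the Great Basin (limma, adjusted p = 0.0211). There the creosote animals read -1.24, -0.21, -0.94 and -1.53 and the juniper animals 0.58, 0.33, 0.77 and 0.58. In the Mojave the groups overlapped, at 0.30, -0.41, -1.98 and -0.72 on creosote and 0.45, 0.61, 0.51 and 0.16 on juniper. That difference was -1.29 ± 0.38 (limma, adjusted p = 0.0411), the call was lost in 12 of 16 runs that left out 1 animal, and without creosote animal 3 it was -0.87. The Mojave call was also lost with a replicate block (-1.22, limma adjusted p = 0.0738), and the Great Basin call was lost in 4 of 16 such runs.

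Of 16 genes of electron transfer and haem turnover, 15 were tested. In the Great Basin 5 were lower and 0 higher on creosote, and in the Mojave 5 were lower and 1 higher, with a median of -0.39 in both. Among all tested probes 1.89% were called lower and 2.02% higher in the Great Basin, and 6.23% and 3.8% in the Mojave. Besides the 3 above, Fech, which inserts iron to form haem, was lower in both populations (-0.46 and -0.63). Urod was lower in the Great Basin (-0.46, adjusted p = 0.0474 by limma), a call lost in 10 of 16 runs with 1 animal left out, and its second probe was at 1.06 in the Mojave, not called. Cyb5r3, the reductase of cytochrome b5, was lower in the Mojave (-0.72) on 1 of 2 probes, a call lost in 4 of 16 runs. Alad was higher in the Mojave (0.35), a value that turned to -0.04 under median centring and whose call was lost in 2 of 16 runs. With slide as a block 4 genes were lower in the Great Basin and 5 in the Mojave, and with a replicate block 4 and 3. Without the dim slide 2 were lower in the Great Basin and 3 in the Mojave, and with saturated spots left out, which removes Cyb5, 4 of 14 tested in each. With 1 animal left out the counts lower on creosote ran from 2 to 6 and from 3 to 5.

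**Figure D5:**
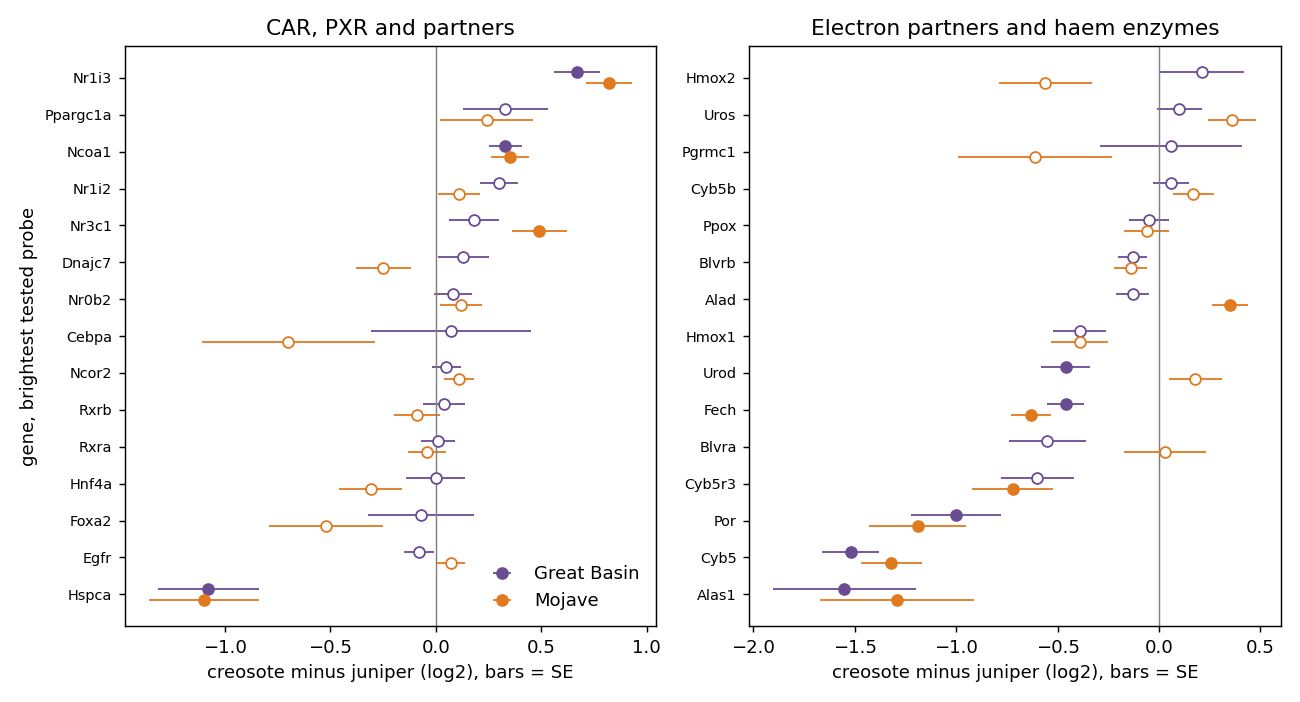
Diet difference, creosote minus juniper on the log2 scale with SE (horizontal axis), of the brightest probe of each gene of the CAR and pregnane X receptor list (left) and of electron transfer and haem turnover (right), in the Great Basin (purple) and Mojave (orange); filled points passed limma's test. Nr1i3 lies at 0.67 and 0.82, while Por and Alas1 lie between -1.55 and -1.0; the Cyb5 points rest on saturated juniper spots and are no exact differences.

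Other genes known as targets of CAR or the pregnane X receptor moved in part. Of 40 listed, 29 were tested in the Great Basin and 30 in the Mojave. In each population 4 were lower and 1 higher on creosote, with medians of -0.06 and -0.09. The shares of all tested probes differed between populations: 1.89% lower and 2.02% higher in the Great Basin, 6.23% and 3.8% in the Mojave. The count lower in the Mojave ran from 2 to 7 with 1 animal left out and was 9 with median centring, 8 with outlier spots kept or with probes above background on all arrays, and 7 with no sex term; with males alone 0 were lower in the Great Basin. Of the Cyp3a genes listed, drug-metabolising P450s under the pregnane X receptor, not all were called. Those that were called were lower in both populations: Cyp3a3 by -1.18 and -1.49, Cyp3a11 by -0.54 and -0.53, and Cyp3a18 by -0.40 and -0.40. Cyp2c7 was lower in the Great Basin (-1.48, called on 2 of 3 probes) and the transporter Abcc3 in the Mojave (-0.69). The 1 gene higher in each population was a conjugating enzyme, Gstm2 in the Great Basin (1.30) and Sult1a1 in the Mojave (0.79). With 1 animal left out, the calls were lost in 2 of 16 runs for Cyp3a18 in each population, in 5 for Gstm2 and in 12 for Abcc3, and in 0 for the others named here.

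Markers of liver cell types were read beside these differences. The share of all tested probes called higher on creosote was 2.02% in the Great Basin and 3.8% in the Mojave. Of 15 hepatocyte markers 13 were tested and 2, Apoa1 and Tf, were above background on 0 arrays. In each population 5 of the 13 were higher on creosote and 0 lower, with medians of 0.63 and 0.40; the mean over the list ran from 0.53 to 0.78 in Great Basin creosote animals, -0.02 to 0.10 in Great Basin juniper, 0.36 to 0.65 in Mojave creosote and 0 to 0.06 in Mojave juniper animals. Albumin (Alb) was higher in the Mojave (1.62) and the amino acid enzymes Tat and Cps1 in the Great Basin (1.41 and 1.03). Tat was also called higher in the Mojave, at 0.81 to 1.09 with 1 animal left out. In the same livers 7 Cyp2b probes in the Great Basin and 4 in the Mojave were lower. Without the dim slide 2 hepatocyte markers were higher in the Great Basin and 3 in the Mojave. In the Great Basin, Ambp and Fgg were saturated in Cy5 on every array of both diets. Fgb was saturated there on 4 of 4 creosote and 3 of 4 juniper arrays. In the Mojave, Ambp and Fgb were saturated on 3 of 4 arrays of each diet, and Fgg on 3 of 4 creosote and 4 of 4 juniper arrays. The Mojave calls include Ambp and Fgb. With saturated spots left out 4 of 10 markers were higher in the Great Basin and 3 of 12 in the Mojave. The part of this shift in the Cyp2b values was not tested.

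For cells other than hepatocytes the called markers are given by cell type. Over all tested probes 1.89% were called lower and 2.02% higher in the Great Basin, and 6.23% lower and 3.8% higher in the Mojave. The marker counts were not tested against these shares. Of 9 Kupffer cell markers 1 (Cd14, -0.54) was lower in the Great Basin, and the list mean of creosote animals (-0.21 to 0.23) overlapped that of juniper animals (-0.17 to 0.20). Of 9 stellate cell markers 1 (Rgs5, 1.23) was higher in the Great Basin, and in the Mojave the list mean was 0.11 to 0.34 on creosote against -0.23 to -0.01 on juniper. Of 8 endothelial markers Xlkd1 was higher in both populations (0.56 and 0.56) and Tie1 lower in the Mojave (-0.31, lost in 13 of 16 runs with 1 animal left out). Of 6 neutrophil markers Csf3r was higher in both (0.53 and 0.48), the Great Basin value being -0.19 in Cy5 alone. None of 4 cholangiocyte, 4 lymphocyte or 3 erythroid markers passed limma's test, and 0 of them had an unadjusted p under 0.05. Of 12 markers of pancreas and intestine 1 was higher in the Mojave (Ela1, 0.59, lost in 3 of 16 such runs). The lymphocyte markers Cd3e and Cd2 were above background on 0 arrays. The part of these markers in the Cyp2b values was not tested.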

How the data were processed

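Liver RNA of 16 woodrats was hybridised to 16 Agilent rat arrays of 45018 spots in 2 colours. Spots were read with Agilent Feature Extraction 9.1.3.1, per the submitters' processing notes. The deposited scanner files hold mean, background and processed signals of both dyes as linear intensity, and a log ratio that is log10 of red over green, per the file headers. The deposited series values are log2 ratios and equal the log2 ratio of the processed signals to within 5e-10; the deposited log10 ratios, turned to log2, differed from it by up to 1.25 and were not used further. From the mean and background signals, normexp background correction with an offset of 50 and loess within each array were run in limma 3.58.1 (R 4.3.3). Control spots and spots marked as outliers had no weight, and outlier values were left out. Spots of 1 probe were averaged, and a probe entered the tests if 4 or more arrays gave it a Cy5 signal well above background.

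A linear model with 4 group means and a sex term was fitted to all 16 arrays with limma's moderated test, and p-values were adjusted by Benjamini-Hochberg over all tested probes (threshold 0.05). A probe was not tested in a contrast where dropped spots left no value. Saturated spots were kept; for a probe saturated in Cy5 on every array of a group, a bound on the fold was taken from channel values after limma's Aquantile scaling. Replicates are separate animals with 1 array each, and the number of arrays limits the precision (median SE of a diet difference 0.0897 in the Great Basin). Shared replicate numbers were checked, and the mean correlation of same-numbered animals' deviations was -0.071 to 0.038. For animals that share a slide it was -0.039 to 0.038. The check thus did not pick up a known grouping, and it cannot tell whether the numbers pair animals. On simulated data for the Great Basin diet comparison, with 30186 probes, 97% of changes of 1 log2 unit and 100% of 2 log2 units were recovered, with 7 false calls at each size. Several Cyp2b probes had an SE well above the median of 0.0897, as 0.28 for Cyp2b15 A_44_P191762 in the Great Basin, so these rates need not hold for them.

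Members and gene lists were chosen with earlier results of these data known, and 1 listed gene is not reported here. Genes outside Cyp2b were named by rule: list members past the threshold in a diet comparison (up to 8 per list by size), the genes Nr1i3, Nr1i2, Por, Cyb5 and Alas1 in any case, and the 3 probes most correlated with the brightest probe of each Cyp2b gene; a listed gene is given by its brightest tested probe. Rxra and the second probes of listed genes were added after their values were seen. Alternatives were an offset of 10, processed signals, median centring, Cy5 alone, outlier spots kept, saturated spots left out, 2 other filters, no sex term, slide or replicate blocks, males alone, 1 probe per gene, and leaving out the dim slide or each animal.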

Additional observations from a re-analysis of the deposited data

How the results depend on the processing

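None of the 11 Cyp2b differences that passed changed sign under any alternative run. The count in the Great Basin (7) was 2 without the dim slide, 1 with males alone (fewer animals in both) and 4 with 1 probe per gene, which is all 4 genes. The Mojave count (4) was 3 without the dim slide, where the bright Cyp2b13 probe was lost, and 7 with median centring, which also called 2 probes lower in the Mojave on creosote (A_44_P316194 at -0.48 and A_44_P311326 at -0.23); the cause was not tested. Leaving out 1 animal gave 5 to 7 calls in the Great Basin, 4 in the Mojave, 0 for population, interaction and sex, and 7 to 8 unequal probe pairs. The replicate block left 7 and 4 calls and so changed no Cyp2b count. The labels give same-numbered animals only a shared number. Over all probes the replicate block gave 1027 and 2827 calls. Cyp2b3 in the Great Basin was also lost with median centring (-0.54, adjusted p = 0.0589), Cy5 alone (-0.51, 0.162) and no sex term (-0.57, 0.0674). The Great Basin call for the dim Cyp2b13 probe A_44_P163271 was lost with Cy5 alone as well. Of genes outside the family, Ncoa1 (-0.10) and Alad (-0.04) in the Mojave turned sign with median centring and Csf3r (-0.19) in the Great Basin with Cy5 alone, none of them called there. Of 46 diet calls in these other genes, besides these sign changes, 30 were lost with males alone, 23 with Cy5 alone, 20 without the dim slide, 16 with processed signals, 10 with median centring and 6 with a replicate block.

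Over all probes the Great Basin count of 1180 (51.7% higher on creosote) was 1248 with median centring (63.8% higher), 1494 with Cy5 alone (42.6%), 779 with processed signals, 434 without the dim slide and 174 with males alone, and 688 to 1397 with 1 animal left out. The Mojave count of 3027 (37.9% higher) was 5632 with median centring (13.6% higher), 1290 with Cy5 alone, 1959 with processed signals, 1275 with males alone, and 1894 to 3287 with 1 animal left out. The creosote population count of 28 was 3682 with median centring and 346 with no sex term, and the interaction count of 0 was 2974 and 215 under these and 30 with slide as a block. With 1 animal left out they ran from 0 to 628 and from 0 to 500, and the creosote population count was 0 without the dim slide. Signal over background limits A_44_P163271 most, since its size follows the offset.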

Other observations

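Outside the naming rule, 2 probes are described on the array as similar to another Cyp2b gene, Cyp2b12, and both were well above background on all 16 arrays. They were chosen after their values were seen. LOC502310 read -1.13, -1.11, -0.73 and -1.89 in Great Basin animals on creosote and 0.57, 0.43, 0.03 and 0.16 on juniper. The groups did not overlap, and the difference was -1.51 ± 0.20 (limma, adjusted p = 0.000536). Mojave animals read -0.92, -0.82, -1.13 and -0.81 on creosote and -0.18, 0.30, 0.13 and 0.56 on juniper, a difference of -1.04 ± 0.22 (limma, adjusted p = 0.00692). LOC685222 kept 2 or 3 values a group after outlier spots were left out, and was at -1.56 ± 0.13 in the Great Basin and -1.10 ± 0.14 in the Mojave (limma, adjusted p = 0.000343 and 0.0019).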
